A study of Mus musculus with 12 samples.

Results

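RNA sequencing of BV2 cells that received 10 µM 6-gingerol and then lipopolysaccharide was compared with that of BV2 cells that received lipopolysaccharide alone. The comparison rests on 4 of the 12 libraries of the series, 2 in each group, and on 12705 genes that passed a filter on low counts, of 43432 gene identifiers listed. The libraries were chosen by their labels and not by any measured value. BV2 is a mouse microglial line immortalized with a retrovirus carrying raf and myc oncogenes, so its cells divide without microglial growth factors, and a line of this kind stands for resident microglia only in part. Lipopolysaccharide (LPS), the endotoxin from the outer membrane of Gram-negative bacteria, was given at 100 ng/mL to every group but the untreated one, and the compound was added 1 h before it, in medium without serum. The groups were 6-gingerol 10 µM with LPS, 6-gingerol 30 µM with LPS, 6-shogaol 10 µM with LPS, 6-shogaol 30 µM with LPS, LPS, and untreated cells. Library totals were 16534960 to 21179867 expected counts. The time from LPS to harvest is not given in the sources used here. No label says that the replicates were separate cultures, so the p-values speak only of the variation among these libraries, which may be technical.

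6-Gingerol is the main pungent phenol of fresh ginger, and 6-shogaol is its dehydration product, in which a double bond next to the ketone takes the place of a hydroxyl group. LPS binds TLR4 on microglia and macrophages, and the receptor signals through MyD88 to NF-kB, which drives cytokine genes, and through TRIF to IRF3, which drives interferon beta and, through it, the interferon-stimulated genes. Electrophilic compounds can in addition release the transcription factor NRF2 from its inhibitor KEAP1, which raises genes of glutathione and thioredoxin metabolism.

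No gene passed the test between 6-gingerol 10 µM with LPS and LPS (edgeR quasi-likelihood F test, Benjamini-Hochberg adjusted p under 0.05 over 12705 genes, percent called 0). DESeq2, limma-voom and limma-trend on the authors' normalized table also called 0 genes. At an unadjusted p under 0.05 there were 243 genes (1.91%), 105 higher (0.826%) and 138 lower (1.09%) with 6-gingerol, and 96, 264 and 363 genes with those 3 other tools. With no filter on low counts the edgeR test called 28 of 20036 genes. Expression is given as CPM, a gene's counts scaled to the total of its library after TMM adjustment. The lowest p was that of Gm10401, a predicted gene of chromosome 5, with 0 and 0.0548 CPM with 6-gingerol, against 2.66 and 1.33 CPM with LPS alone. Its unadjusted p was 0.000101 and its adjusted p was 1 in edgeR's quasi-likelihood test with Benjamini-Hochberg adjustment. Because the libraries hold RNA of whole cultures, fewer cells expressing a gene and less RNA per cell cannot be told apart in any of these values.

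Since a p that misses the threshold does not show that expression was the same, the size of change that the data leave possible was measured. Each gene's log2 fold change has a 95% interval, and a gene was called bounded when 2 one-sided tests placed its change inside a limit at an adjusted p under 0.05. Within 2-fold in either direction (log2 1), 11352 genes (89.4%) were bounded. Within log2 0.5, which is 1.41-fold, 9198 genes (72.4%) were bounded. The 95% interval itself lay within log2 1 for 87.4% and within log2 0.5 for 69.4% of genes. The bound followed expression level. Of the 5368 genes between 20 and 100 CPM, 99.9% were bounded within 2-fold and 96.8% within log2 0.5. Of the 1950 genes above 100 CPM, the shares were 99.8% and 97.5%. Of the 1220 genes below 1 CPM, 14.3% were bounded within 2-fold and 0.1% within log2 0.5. The median distance from estimate to interval end was 0.23 on the log2 scale above 100 CPM and 1.14 below 1 CPM, so a 2-fold change was not detectable at this depth for most genes below 1 CPM.

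**Figure D1:**
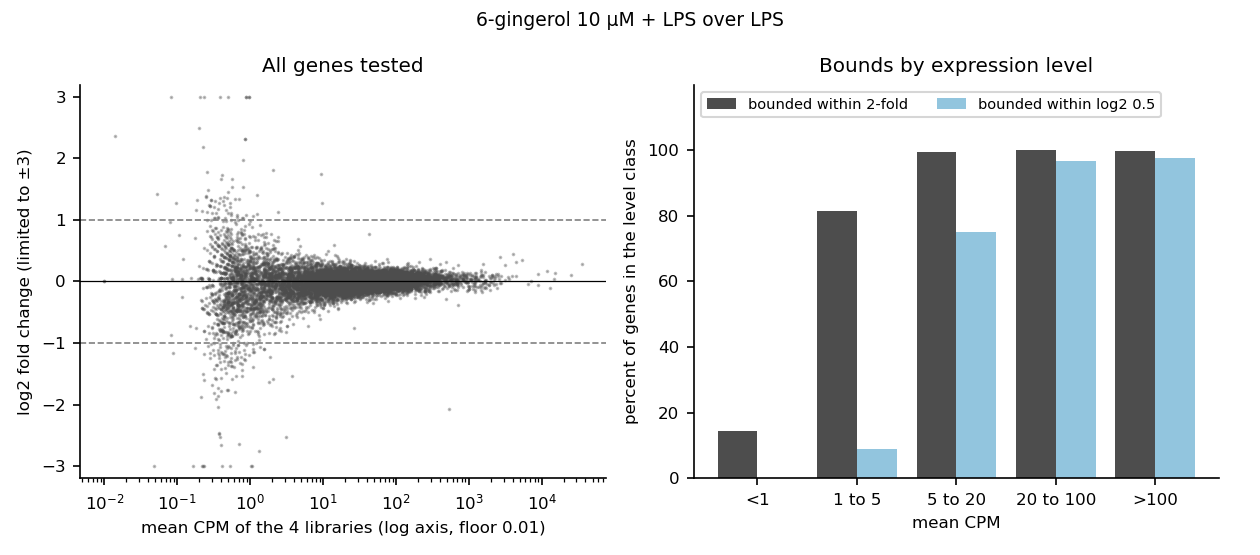
Left, log2 fold change of each of the 12705 genes tested, 6-gingerol 10 µM with LPS over LPS, against the mean CPM of the 4 libraries on a log axis, each point 1 gene and changes beyond 3 drawn at 3. Right, the percent of genes in each level class bounded within 2-fold and within log2 0.5, which reaches 99.5% and 75.2% between 5 and 20 CPM.

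The LPS response itself was large in the 6-gingerol libraries. Against untreated cells, 1665 genes (13.1%) were called with 6-gingerol and LPS, 1049 higher (8.26%) and 616 lower (4.85%). With library totals in place of TMM scaling the split was 762 higher and 1042 lower. LPS alone called 1501 genes (11.8%) against the same untreated libraries, 973 higher (7.66%) and 528 lower (4.16%). Cfb, complement factor B, was at 227 and 241 CPM with 6-gingerol and LPS, 261 and 267 CPM with LPS, and 0.308 and 0.233 CPM in untreated cells. Its log2 change from untreated was 9.73 ± 0.17 (SE) with 6-gingerol and LPS and 9.91 ± 0.17 with LPS (adjusted p = 5.95e-15 and 4.5e-15, edgeR). Saa3, an acute-phase serum amyloid made by activated macrophages, rose by 4.70 ± 0.18 with 6-gingerol and LPS and by 4.81 ± 0.18 with LPS alone. In TPM, a level scaled for transcript length, Saa3 averaged 40940 with 6-gingerol and LPS and 44670 with LPS. On the same scale the siderophore-binding protein gene Lcn2 averaged 3071 with 6-gingerol and LPS and 3133 with LPS, and Il6 186 with 6-gingerol and LPS and 233 with LPS. The number called against untreated cells with 6-gingerol was 1019 without replicate 1 of that group, a library described at the end.

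Inflammatory cytokines and chemokines are the signals that LPS-treated microglia release. Of 36 listed genes, 23 were tested, none was called, and the intervals of 19 lay within log2 1. Their median log2 fold change was -0.09, against 0.01 for all genes tested, and 10 were above and 13 below 0. Il6, interleukin 6, a gene of chromosome 5 (30013114 to 30019981 on GRCm38), was at 174 and 163 CPM with 6-gingerol, against 212 and 194 CPM with LPS. The 6-gingerol libraries lay below both LPS libraries, as they did for 13.3% of all genes tested, and the log2 fold change was -0.27 with a 95% interval from -0.59 to 0.05 (edgeR adjusted p = 1). Ccl5, a chemokine for T cells, was at 204 and 245 CPM with 6-gingerol, against 246 and 289 CPM with LPS, a log2 change of -0.25 (-0.63 to 0.12). Ccl2, the monocyte chemokine, was at 74.7 and 66.7 CPM, against 82.3 and 76.7 CPM with LPS, a log2 change of -0.17 (-0.51 to 0.17). These 3 genes had the 6-gingerol libraries below the LPS libraries, and no interval excluded 0. Tnf, tumour necrosis factor, had overlapping groups at 157 and 152 CPM with 6-gingerol and 144 and 155 CPM with LPS, a log2 change of 0.05 (-0.14 to 0.24). Cxcl10, an interferon-induced chemokine, was the median gene of the list at 221 and 250 CPM with 6-gingerol and 245 and 257 CPM with LPS. Il1b was too scarce to bound, at 0.778 and 0.986 CPM with 6-gingerol and 0.969 and 1.38 CPM with LPS (interval from -1.34 to 0.49). The lowest member was Csf3, granulocyte colony-stimulating factor, at 3.17 and 1.75 CPM with 6-gingerol and 3.45 and 4.67 CPM with LPS (log2 -0.73, interval from -1.47 to 0.01).

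The promoters of Il6 and Cxcl10 are shown because these genes carry the comparison with 6-shogaol given further on, and because they hold the motifs by which classes of genes were formed. Both are RefSeq promoters on GRCm38.p6, from 250 bases before to 50 after the gene start, written 5′ to 3′ along the gene. In Il6 (chr5:30012864-30013163, plus strand) capitals mark the NF-kB letters, GGG and TTTCC with any 2 bases between. In Cxcl10 (chr5:92348840-92349139, minus strand) they mark the interferon-stimulated response element letters, GAAA repeated with any 2 bases between, and the reverse complement of the antioxidant response element letters TGACNNNGC, which can also cover an AP-1 site.
Il6: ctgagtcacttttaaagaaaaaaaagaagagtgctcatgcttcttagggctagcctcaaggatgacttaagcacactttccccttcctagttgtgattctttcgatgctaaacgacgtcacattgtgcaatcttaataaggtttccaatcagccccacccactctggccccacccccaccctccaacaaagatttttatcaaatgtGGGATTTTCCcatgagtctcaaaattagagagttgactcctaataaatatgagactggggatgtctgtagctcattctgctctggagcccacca
Cxcl10: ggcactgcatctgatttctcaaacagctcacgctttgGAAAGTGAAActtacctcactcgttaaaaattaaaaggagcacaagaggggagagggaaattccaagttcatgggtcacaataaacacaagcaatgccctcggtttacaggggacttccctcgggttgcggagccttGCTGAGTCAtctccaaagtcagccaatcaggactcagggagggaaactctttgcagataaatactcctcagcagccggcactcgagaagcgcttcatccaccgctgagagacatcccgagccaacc
On either strand, 1.64% of 27025 promoters held the NF-kB letters, 3.52% the interferon letters and 12.36% the antioxidant letters. Among tested genes, the 158 with the NF-kB letters had a median log2 fold change of 0.01, the 304 with the interferon letters 0.01 and the 1374 with the antioxidant letters 0.02. None of these classes held a called gene, and 91.8%, 90.1% and 92.4% of their intervals lay within log2 1. The share was 87.4% for all genes tested and 92.4% for protein-coding genes. Only 9428 tested genes had a promoter to search, so all genes tested are not a like background. A match of letters is a description of the sequence and no evidence of binding.

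Inflammatory effectors, the enzymes and secreted proteins of the activated state, had a median log2 fold change of -0.07 over 31 tested genes of 36 listed, with 22 below 0. The 6-gingerol libraries lay below both LPS libraries for 10 of them and above for 1, against 13.3% and 15.1% of all genes tested. The list's median was between -0.05 and -0.08 when any of the 4 libraries was left out. Cfb gave a log2 change of -0.17 with an interval from -0.36 to 0.02 and with both 6-gingerol libraries below both LPS libraries (unadjusted p = 0.0686, adjusted p = 1, edgeR). Nos2, the inducible nitric oxide synthase, was at 178 and 185.8 CPM with 6-gingerol, against 197 and 186.1 CPM with LPS (log2 -0.08, interval from -0.49 to 0.34). Ptgs2, cyclooxygenase 2, was at 89.0 and 84.2 CPM with 6-gingerol, against 84.7 and 81.9 CPM with LPS (log2 0.06, -0.16 to 0.27). Acod1, which makes itaconate, was at 1389 and 1194 CPM with 6-gingerol, against 1203 and 1153 CPM with LPS, and was the highest member at 0.13 (-0.12 to 0.38). The groups of Ptgs2 and Acod1 overlapped. Saa3 was at 12630 and 12770 CPM with 6-gingerol, against 13290 and 14080 CPM with LPS (log2 -0.11, -0.43 to 0.21), and Lcn2 gave 0.02 (-0.34 to 0.38). The lowest member was Hdc, histidine decarboxylase, at 1.5 and 1.2 CPM with 6-gingerol and 1.9 and 2.3 CPM with LPS (log2 -0.65, -1.36 to 0.07).

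The type I interferon response had a median of -0.06 over 44 tested genes of 48 listed, with 33 below 0, none called and 42 intervals within log2 1. Isg15, a ubiquitin-like modifier, was at 113 and 86.3 CPM with 6-gingerol, against 105 and 96.1 CPM with LPS (log2 -0.02, -0.28 to 0.25). Rsad2, viperin, was at 336 and 360 CPM, against 350 and 391 CPM with LPS (log2 -0.09, -0.29 to 0.11). Irf7, the factor that amplifies interferon alpha genes, was at 24.4 and 31.8 CPM, against 28.5 and 38.0 CPM with LPS (log2 -0.25, -0.63 to 0.13). Groups overlapped for these 3 genes. Ifit1, an antiviral RNA-binding protein gene, had its 6-gingerol libraries below the LPS libraries at 13.7 and 16.9 CPM, against 17.7 and 17.2 CPM (log2 -0.19, -0.53 to 0.15). The NF-kB pathway and its feedback inhibitors were the class bounded most fully among the inflammatory lists, with 35 of 35 intervals within log2 1, 32 within log2 0.5 and a median of -0.02. Nfkbia, which encodes the inhibitor IkB alpha, was at 175 and 149 CPM with 6-gingerol, against 148 and 144 CPM with LPS (log2 0.15, -0.05 to 0.36), and the deubiquitinase gene Tnfaip3 gave 0.05 (-0.15 to 0.25). Without replicate 1 of the 6-gingerol group Nfkbia was at 0.03, Irf7 at -0.07 and Ifit1 at -0.05, and without replicate 2 they were at 0.26, -0.45 and -0.35. Without LPS replicate 2 Irf7 was at -0.02.

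Genes that LPS raises were also taken as a class without use of the 4 libraries compared. With 6-gingerol 30 µM and LPS, 7.45% of genes were called higher and 3.97% lower than in untreated cells, and among them 333 were higher and 75 lower by at least log2 1. Over the 333, the median log2 fold change of 6-gingerol 10 µM with LPS over LPS was -0.06, with 209 below 0, 158 intervals (47.4%) within log2 0.5 and 265 (79.6%) within log2 1. The 6-gingerol libraries lay below both LPS libraries for 78 of the 333 and above for 35, against 13.3% and 15.1% of all genes tested. At an unadjusted p under 0.05, 10 were lower and 1 was higher, against 1.09% and 0.826% of all genes. The median was between -0.02 and -0.10 under each other scaling and with each of the 4 libraries left out. Over the 75 lower genes the median was 0.01.

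**Figure D2:**
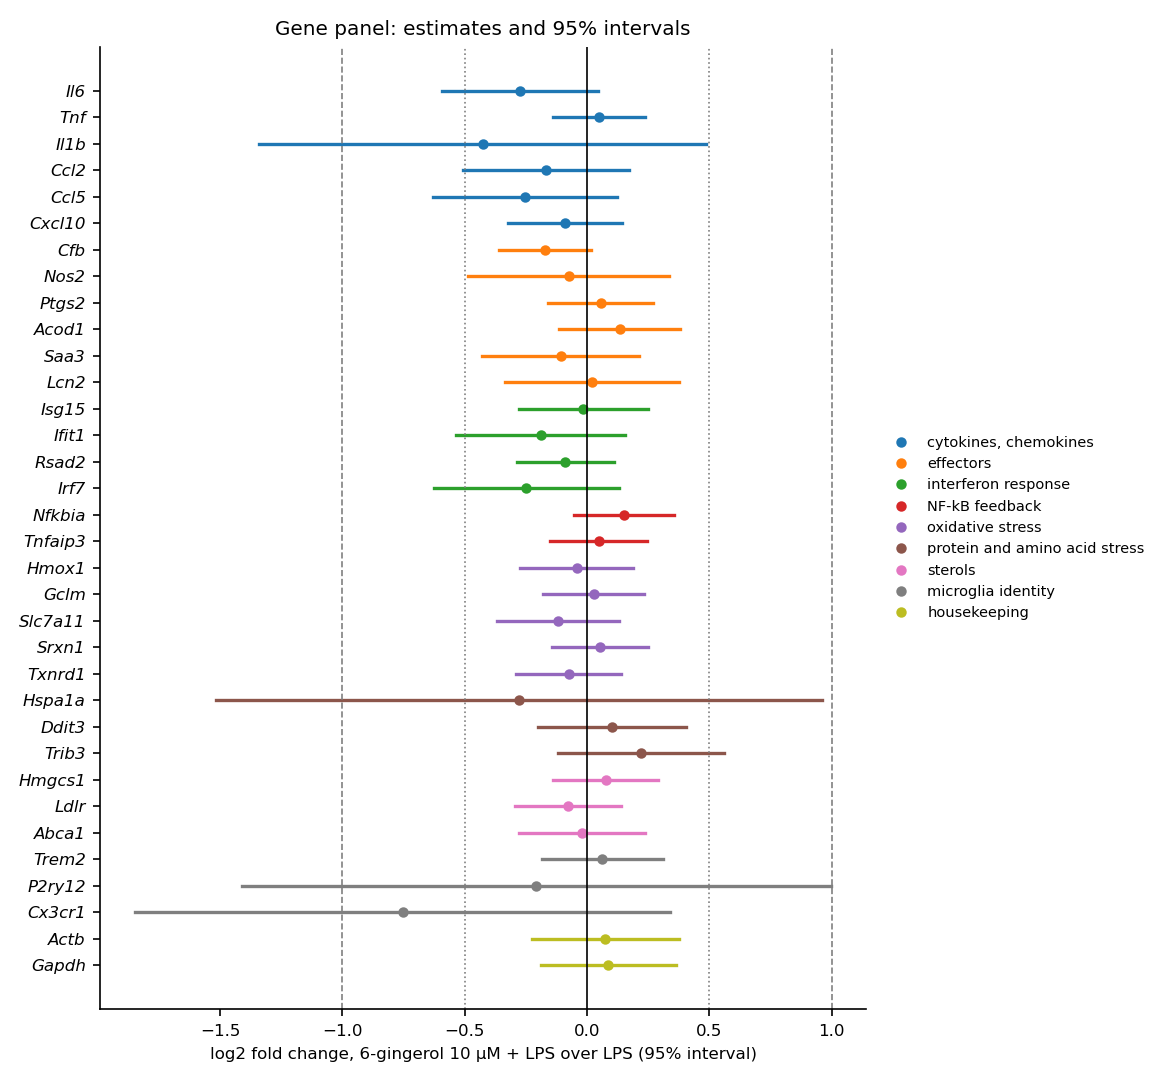
Log2 fold change with its 95% interval for the 34 genes of a panel chosen for the LPS response, stress responses and microglia, 6-gingerol 10 µM with LPS over LPS, from 2 libraries a group. Dotted and dashed lines mark log2 0.5 and log2 1; all 30 genes with at least 5 CPM have intervals within log2 1, and the widest intervals are those of Hspa1a, P2ry12, Cx3cr1 and Il1b.

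Across the panel of 34 genes, estimates ran from -0.75 for Cx3cr1 to 0.22 for Trib3, and 14 were above 0. The 30 panel genes with a mean of at least 5 CPM in either group all had intervals within log2 1, and the farthest end of any was at 0.63. For 24 the interval lay within log2 0.5. Of the 34, the 6-gingerol libraries lay above the LPS libraries for 3 and below for 8, against 15.1% and 13.3% of all genes tested.

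Oxidative and proteotoxic stress genes are controlled by NRF2, by the heat shock factor HSF1 and by ATF4, the factor of the integrated stress response. NRF2 targets had a median of 0.00 over 37 tested genes of 39 listed, with 35 intervals within log2 1 and 32 within log2 0.5. Hmox1, heme oxygenase 1, was at 518 and 501 CPM with 6-gingerol, against 542 and 507 CPM with LPS (log2 -0.04, -0.27 to 0.19). Slc7a11, the cystine transporter, was at 61.2 and 66.2 CPM, against 62.7 and 75.5 CPM with LPS (log2 -0.12, -0.37 to 0.13). Groups of both genes overlapped. Gclm of glutathione synthesis gave 0.03 (-0.18 to 0.23), the sulfiredoxin gene Srxn1 0.05 (-0.14 to 0.25) and the thioredoxin reductase gene Txnrd1 -0.08 (-0.29 to 0.14). Heat shock (HSF1) targets had a median of 0.04 over 23 genes, although Hspa1a, at 0.167 and 1.09 CPM with 6-gingerol and 0.666 and 0.857 CPM with LPS, was too scarce to bound. The ATF4 integrated stress response had a median of 0.04 over 38 genes, which was -0.04 without replicate 1 of the 6-gingerol group and 0.11 without replicate 2. Its highest member was Trib3, a pseudokinase gene, at 165 and 111 CPM with 6-gingerol and 125 and 112 CPM with LPS, and the estimate of 0.22 was -0.09 without replicate 1. Ddit3, which encodes CHOP, gave 0.10 (-0.20 to 0.40). All 24 genes of the unfolded protein response had intervals within log2 0.5.

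Most metabolic and proliferation classes were tightly bounded. All 23 genes of cholesterol biosynthesis and uptake and all 36 mitosis genes had intervals within log2 0.5, as did 39 of 40 genes of DNA replication, 51 of 52 cytosolic ribosomal protein genes and 40 of 41 nuclear genes of the respiratory chain. Replication-dependent histones, whose mRNAs mostly lack a poly(A) tail, were not, with 9 of 36 tested and 3 of 9 intervals within log2 1. Hmgcs1, the HMG-CoA synthase of sterol synthesis, was at 78.5 and 78.3 CPM with 6-gingerol, against 73.9 and 74.9 CPM with LPS (log2 0.08, -0.14 to 0.29). Glycolysis and hypoxia genes had a median of 0.08 over 30 genes, which was 0.00 without replicate 1 of the 6-gingerol group and 0.17 without replicate 2. Its highest member was Ero1l, an oxidase of the endoplasmic reticulum, at 785 and 791 CPM with 6-gingerol and 697 and 612 CPM with LPS (log2 0.27, 0.03 to 0.51, unadjusted p = 0.0318, adjusted p = 1, edgeR). Microglia identity genes had a median of -0.02 over 27 genes. Trem2, a lipid receptor of microglia, was at 44.7 and 38.8 CPM, against 43.8 and 36.3 CPM with LPS. P2ry12 and Cx3cr1, markers of resting microglia, were at most 1.09 CPM in each of the 4 libraries. Long non-coding genes were bounded less, with 46.5% of 856 intervals within log2 1, as were pseudogenes, with 45.3% of 435.

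**Figure D3:**
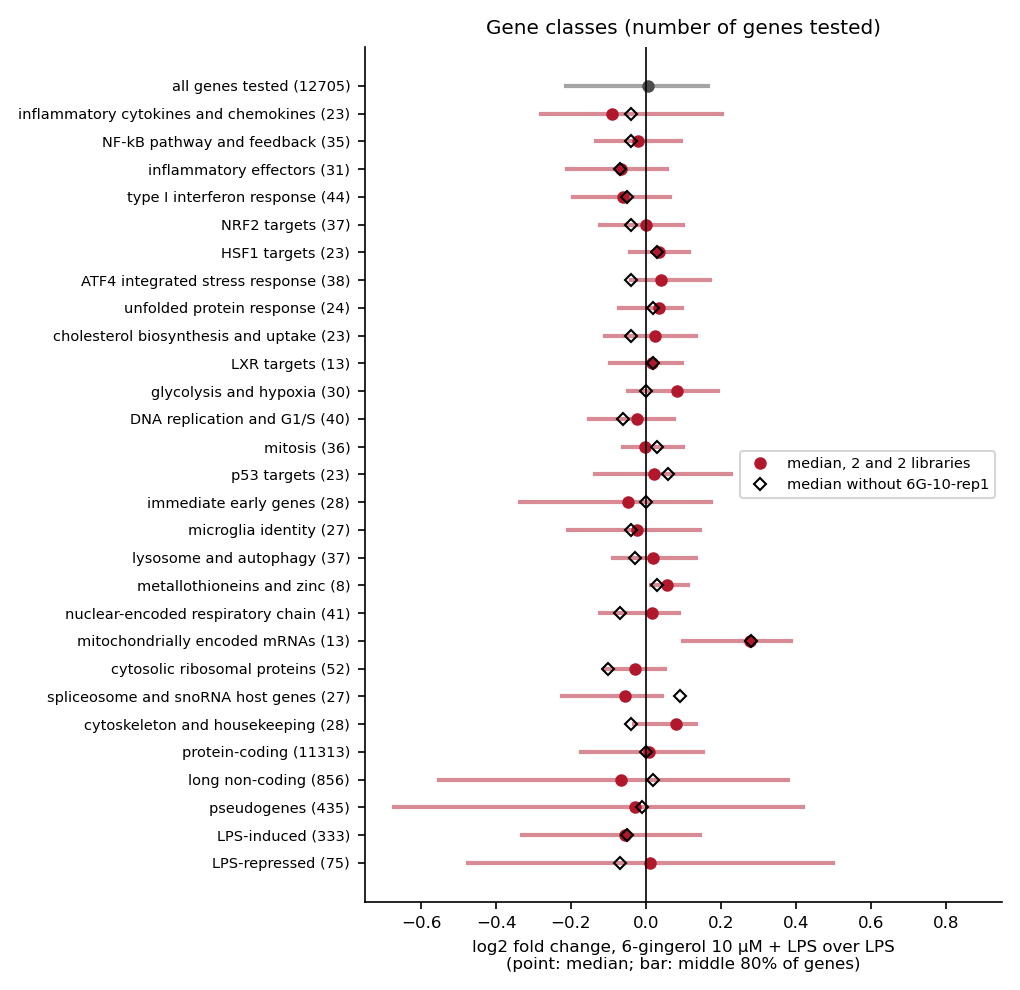
Median log2 fold change (points) and the middle 80% of genes (bars) by class, 6-gingerol 10 µM with LPS over LPS, with the number of genes tested in brackets; open diamonds give the median without replicate 1 of the 6-gingerol group. Mitochondrially encoded mRNAs stand at 0.28 with and without that library, and spliceosome and snoRNA host genes move between -0.06 and 0.09.

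Although no gene was called, a rule named the genes with the largest estimates: at least 5 CPM on average in either group, an unadjusted p under 0.05 and no overlap between the groups. The unadjusted p alone was met by 2.11% of genes between 5 and 20 CPM, 0.71% between 20 and 100 CPM and 1.13% above 100 CPM. All parts of the rule were met by 117 genes, 70 higher and 47 lower, and none of them passed adjustment. The highest was Kbtbd8, an adaptor of the CUL3 ubiquitin ligase, at 5.78 and 5.47 CPM with 6-gingerol, against 3.69 and 3.29 CPM with LPS (log2 0.69, 0.10 to 1.29). Trp53inp1, a p53 target that promotes autophagy and cell death, was at 17.0 and 18.7 CPM, against 13.6 and 13.2 CPM with LPS (log2 0.41, 0.08 to 0.74). Gemin7, a subunit of the SMN complex that assembles spliceosomal RNPs, was at 19.0 and 14.4 CPM, against 13.2 and 11.7 CPM with LPS (log2 0.43, 0.10 to 0.75), an estimate that was 0.22 without replicate 1 of the 6-gingerol group. Higher values in every pairing of libraries and intervals above 0 were required of these 3 genes by the rule. The lower ends of their intervals were at or below 0.10. The other higher genes were Gm6710, 1700096K18Rik, Zfp758, Gm17494, Eif3j2 and Fam57a, with log2 changes between 0.40 and 0.59, and mt-Nd4, described with its class.

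The lowest was Gm9493, annotated as a processed pseudogene, at 4.17 and 5.31 CPM with 6-gingerol, against 6.84 and 8.76 CPM with LPS (log2 -0.72, -1.18 to -0.27). Gfod1, an oxidoreductase-domain gene, was at 5.67 and 4.76 CPM, against 7.87 and 6.95 CPM with LPS (log2 -0.50, -0.90 to -0.11). Kctd6, another CUL3 adaptor, was at 6.12 and 6.46 CPM, against 8.23 and 9.47 CPM with LPS (log2 -0.50, -0.86 to -0.13). Lower values in every pairing of libraries were likewise required of these 3 genes by the rule. Slc25a42, the mitochondrial coenzyme A carrier, Trim68, Vash1, Zfp28, Spata24, Rps12-ps3 and Gm14288 made up the rest, between -0.48 and -0.61. Gm14288 rested on replicate 2, with 4.87 CPM there and 9.34 CPM in replicate 1, against 10.8 and 10.9 CPM with LPS. Without replicate 1 of the 6-gingerol group, Gm14288 was at -1.15, Vash1 at -0.27, Trim68 at -0.27, Spata24 at -0.36, Zfp28 at -0.30 and Slc25a42 at -0.30, and without replicate 2 Gm14288 was at -0.21 and Vash1 at -0.80. Without LPS replicate 2, Slc25a42 was at -0.29 and Rps12-ps3 at -0.21. All of the genes named by this rule but mt-Nd4 averaged under 20 CPM in both groups.

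Among the classes with at least 5 tested genes, the one whose median stood farthest from 0 was the 13 mRNAs encoded in mitochondrial DNA, which specify subunits of respiratory complexes I, III, IV and V. Their median log2 fold change was 0.28, all 13 estimates were above 0, and the 6-gingerol libraries lay above both LPS libraries for 9 of 13, against 15.1% of all genes tested. None was called, and 4 had an unadjusted p under 0.05. The intervals of 10 of the 13 lay within log2 1 and of 0 within log2 0.5, and the farthest end was at 1.39. mt-Nd4 was at 5114 and 4243 CPM with 6-gingerol, against 3444 and 3431 CPM with LPS (log2 0.45, 0.05 to 0.84). mt-Nd2 was at 3008 and 3136 CPM, against 2381 and 2306 CPM with LPS (log2 0.39, 0.09 to 0.69). mt-Nd1 was at 6319 and 5711 CPM, against 4612 and 4850 CPM with LPS (log2 0.35, 0.04 to 0.66). In each of these complex I genes the 6-gingerol libraries exceeded both LPS libraries. The median was 0.28 without replicate 1 and 0.40 without replicate 2 of the 6-gingerol group. As a mean over the 13 mRNAs relative to the LPS mean, the 6-gingerol libraries were each at 0.26 on the log2 scale and the LPS libraries at -0.02 and 0.02. The untreated libraries were at 0.54 and -0.05 on this measure, so replicates of 1 group differed by more than the 6-gingerol and LPS groups did. The 41 nuclear genes of the respiratory chain had a median of 0.02.

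**Figure D4:**
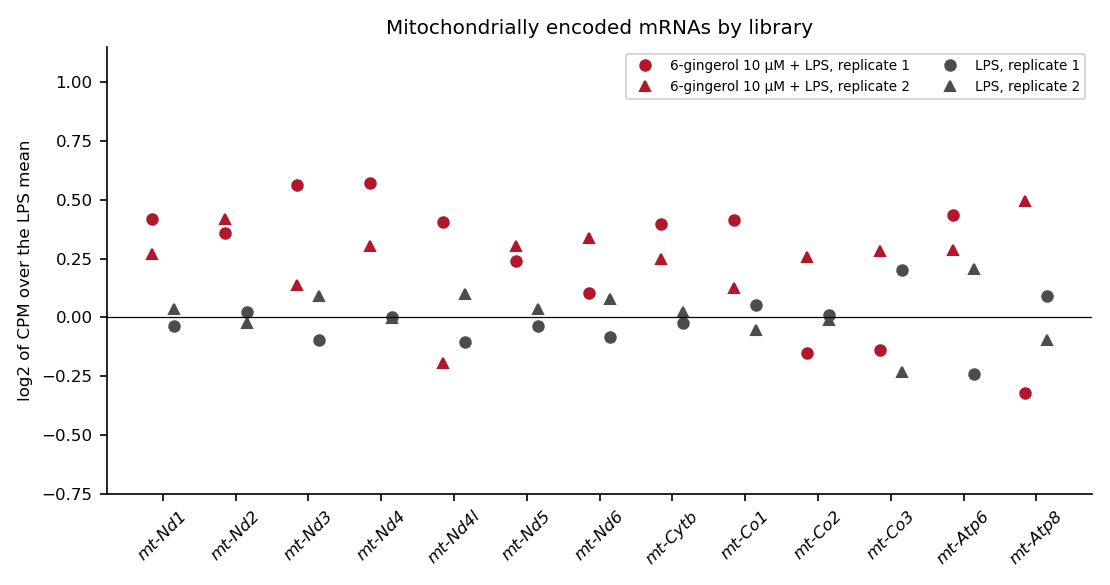
Log2 of CPM over the LPS mean for the 13 mitochondrially encoded mRNAs, each point 1 library, 6-gingerol 10 µM with LPS in red left of LPS in grey. For mt-Nd1, mt-Nd2, mt-Nd4, mt-Nd5, mt-Nd6, mt-Cytb, mt-Co1, mt-Nd3 and mt-Atp6 both 6-gingerol points lie above both LPS points; for mt-Nd4l, mt-Co2, mt-Co3 and mt-Atp8 the groups overlap.

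Reads of these genes are partly assigned to nuclear copies, pseudogenes on chromosome 1 that are nearly identical to mitochondrial sequence. Gm28661 matches mt-Co2, Gm28437 mt-Co3 and Gm10925 mt-Atp6 at 100% identity, and they hold most of the reads of those pairs, so single values of these genes are uncertain. Gm29216, the near-copy of mt-Co1, was at 23.2 and 392 CPM with 6-gingerol, against 408 and 1334 CPM with LPS (log2 -2.07, -7.35 to 3.22), the largest estimate above 100 CPM and one that was named after its values were seen. Summed over the 13 mRNAs and their near-copies, the 6-gingerol libraries held 107001 and 100500 CPM, against 89503 and 87581 CPM with LPS, a log2 ratio of 0.23. The sum ran from 69716 to 107101 CPM over the 12 libraries, and the highest was an untreated library. The first 33 transcript bases of mt-Nd3 (mitochondrial genome, 9459 to 9806) and of its near-copy Gm28438 (chromosome 1, 24612775 to 24613119, minus strand) are shown because the pair is told apart by 1 base over the aligned stretch. Both are GENCODE M21 transcripts on GRCm38, positions are counted from 1 at the 5′ end of the transcript, and the capital marks the difference T3C between mt-Nd3 and Gm28438.
mt-Nd3: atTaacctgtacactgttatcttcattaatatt
Gm28438: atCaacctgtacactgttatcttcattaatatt
mt-Nd3 was at 98.5 and 73.3 CPM with 6-gingerol, against 62.4 and 70.9 CPM with LPS (log2 0.37, 0.07 to 0.66). Together with Gm28438 it was at 697 and 564 CPM with 6-gingerol, against 553 and 458 CPM with LPS, a log2 ratio of 0.32.

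Against 6-shogaol at the matched dose of 10 µM, the 1 pair of compounds compared, 81 genes (0.638%) were called, 71 higher (0.559%) and 10 lower (0.0787%) with 6-gingerol. These and the following comparisons use the same 6-gingerol libraries as the comparison with LPS. Il6 was at 174 and 163 CPM with 6-gingerol, against 32.9 and 25.5 CPM with 6-shogaol (log2 2.53 ± 0.16, adjusted p = 8.02e-07, edgeR). Cxcl10 was at 221 and 250 CPM, against 83.2 and 82.1 CPM with 6-shogaol (log2 1.51 ± 0.11, adjusted p = 3.82e-06). Cfb was higher by 1.47 ± 0.09 and Isg15 by 1.48 ± 0.13 (adjusted p = 8.02e-07 and 2.74e-05). For each of these genes the groups were far apart and the replicates close. Il1rn, the interleukin 1 receptor antagonist, Traf1, Oasl1 and Rsad2 were the other leading genes, between 0.90 and 1.48. By class, 10 of 23 cytokine genes, 8 of 31 effectors, 17 of 44 interferon genes and 2 of 35 NF-kB genes were called higher and none of them lower, where the background of higher calls is 0.559%. Of 37 NRF2 targets 0 were called higher and 1 lower, Ephx1, microsomal epoxide hydrolase, at 49.5 and 47.4 CPM with 6-gingerol, against 75.7 and 68.8 CPM with 6-shogaol (log2 -0.58, -0.82 to -0.33, adjusted p = 0.0298). The lower calls were led by Tspoap1, a scaffold protein gene, at 7.67 and 12.0 CPM, against 18.7 and 20.9 CPM with 6-shogaol. Tspoap1 is also among the 12 genes farthest below the other libraries in replicate 1 of 6-gingerol 10 µM, described at the end. All lower calls, Ephx1 among them, were lost without that replicate and without either 6-shogaol library, fits that leave 1 library in a group. With library totals in place of TMM scaling the split was 48 higher and 21 lower. The count was 36 without replicate 1 and 49 without replicate 2 of the 6-gingerol group, and 23 without replicate 1 and 16 without replicate 2 of the 6-shogaol group.

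Against 30 µM of the same compound, 10 µM of 6-gingerol gave 1 called gene of 12705 (0.00787%). It was mt-Nd3, at 98.5 and 73.3 CPM at 10 µM, against 46.5 and 36.6 CPM at 30 µM (log2 1.05 ± 0.14, adjusted p = 0.0315, edgeR). The call was lost without replicate 1 at 10 µM, without replicate 2 at 30 µM, with library totals in place of TMM scaling and with limma-voom. With Gm28438 added, the log2 ratio was 0.49. Along the dose, Il6 was at 212 and 194 CPM without compound, 174 and 163 CPM at 10 µM, and 101 and 118 CPM at 30 µM. Its difference between 10 and 30 µM was 0.62 with an interval from 0.30 to 0.94, which did not pass adjustment over all genes (adjusted p = 0.961). Il1rn was at 73.1 and 68.8 CPM without compound, 84.0 and 78.2 CPM at 10 µM, and 57.9 and 63.1 CPM at 30 µM. Cfb gave 0.07 (-0.11 to 0.26) and Rsad2 0.03 (-0.17 to 0.23) between 10 and 30 µM. Medians of 10 minus 30 µM were 0.20 for 23 cytokines, 0.12 for 31 effectors and -0.03 for 44 interferon genes, against 0.01 for all genes. For the 13 mitochondrially encoded mRNAs the median was 0.45. As a mean relative to LPS, these mRNAs were at 0.26 in each library at 10 µM, but at -0.27 and -0.01 at 30 µM. Their rise over LPS at 10 µM was thus not seen at the higher dose.

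Replicate 1 of 6-gingerol 10 µM with LPS stood apart from the other LPS-treated libraries. On principal component 4, which held 7.3% of the variance of the 12 libraries, it lay at 29.4, and the other 11 lay between -13.0 and 5.37. On components 1 and 2 it lay with LPS and replicate 2, at 20.4 on component 1 against 20.1 for replicate 2 and 20.2 and 19.6 for LPS. Of 9923 genes with at least 5 CPM on average, it was above all other 9 LPS-treated libraries for 1581 (15.9%) and below all for 1376 (13.9%). Replicate 2 had 801 and 888 such genes, and the LPS libraries 536 and 735, and 439 and 463. The 6-shogaol 30 µM libraries, which differ by treatment, had more, with 1830 and 1575, and 2134 and 1881. The split depends on scaling: by library totals in place of TMM the counts for replicate 1 were 666 above and 2344 below. Its TMM factor, 0.94, was the lowest of the 12. The values that chose this library for description are those just given, and they carry no test.

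Genes that replicate 1 held least of, by distance below the other 9 libraries, included the nuclear RNA Malat1 and some genes of RNA processing. Long non-coding genes as a class were below all other 9 for 22 of 153 (14.4%), against 13.9% of all genes. Malat1, a nuclear long non-coding RNA, was at 308 CPM in replicate 1, against 567 CPM in replicate 2 and 478 to 686 CPM in all other 9 libraries. Pnisr, a splicing-associated SR-like protein gene whose transcript often keeps introns, was at 32.4 CPM, against 45.9 to 64.4 CPM in the others. Setd1b, a histone H3 lysine 4 methyltransferase, was at 6.56 CPM, against 10.2 to 14.0 CPM. The others among the farthest 12 were 2010016I18Rik, Gm15459, Tspoap1, Snhg20, Slc9a5, Srrt, A230050P20Rik, Shcbp1l and Rn7s2. Neat1, the nuclear RNA of paraspeckles, was at 497 CPM in replicate 1 and 724 CPM in replicate 2, against 776 and 809 CPM with LPS, but 6-shogaol 30 µM libraries were at 474 and 512 CPM. Of 27 spliceosome and snoRNA host genes, replicate 1 was below all other 9 libraries for 12 (44.4%) and above for 1, against 13.9% and 15.9% of all genes. By library totals 15 were below, against 2344 of all 9923 genes. As a mean relative to LPS, these genes were at -0.25 in replicate 1 and 0.08 in replicate 2 on the log2 scale, but also at -0.22 in replicate 1 of 6-gingerol 30 µM and -0.39 in replicate 1 of 6-shogaol 30 µM. Their median difference from the 5 other LPS and 6-gingerol libraries was -0.24 on the log2 scale, and -0.32 by library totals. In the comparison of 6-gingerol 10 µM with LPS alone, the median of this class was -0.06 with both 6-gingerol libraries and 0.09 without replicate 1.

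Genes that replicate 1 held most of included Rnh1, the ribonuclease inhibitor, at 465 CPM against 279 to 363 CPM in the other 9 libraries. Coq4 of coenzyme Q synthesis was at 27.8 CPM, against 14.1 to 20.1 CPM, and Plaur, the urokinase receptor, at 14.6 CPM, against 8.73 to 11.4 CPM. mt-Nd3 was at 98.5 CPM, against 36.6 to 76.8 CPM. Gpat3, Msra, Slc41a3, Ovca2, Gm12070, Gm7536, Gm28048 and Rn7s1 were the others of the farthest 12. Rn7s1 and Rn7s2, the 7SL RNAs of the signal recognition particle, are identical over 300 of 300 bases, and the split of their reads is not informative; their sum was 23.2 CPM in replicate 1 and 7.67 CPM in replicate 2, against 16.1 and 6.67 CPM with LPS. By class, replicate 1 was above all other 9 libraries for 7 of 13 mitochondrial mRNAs, 17 of 37 ATF4 genes, 13 of 41 nuclear respiratory chain genes, 13 of 36 lysosome genes and 15 of 52 ribosomal protein genes, against 15.9% of all genes. It was also above for 9 of 28 cytoskeleton and housekeeping genes, 9 of 29 glycolysis and hypoxia genes, 10 of 35 NF-kB genes, 8 of 28 effectors and 42 of 187 LPS-induced genes. The 9 libraries include those with 6-shogaol, which were lower in some of these classes, so 15.9% is not a like background there. Relative to LPS, 6-shogaol 30 µM stood at -1.35 and -1.33 for effectors and -1.16 and -1.2 for LPS-induced genes. From the 5 other LPS and 6-gingerol libraries, replicate 1 differed by a median log2 of 0.02 over all genes. For ATF4, NF-kB, effector and LPS-induced genes this median was 0.11, 0.06, 0.07 and 0.01. Replicate 1 was above for 1 of 40 DNA replication genes and 1 of 33 NRF2 targets, classes that were higher with 6-shogaol 30 µM. Relative to LPS, those 6-shogaol libraries stood at 0.93 and 0.97 for DNA replication and 0.55 and 0.52 for NRF2 targets. The median difference of replicate 1 from the 5 other LPS and 6-gingerol libraries was 0.03 and 0.06 for these classes. By library totals the counts above for mitochondrial, ATF4, respiratory chain, lysosome and ribosomal protein genes were 6, 7, 10, 7 and 11, against 666 of all 9923 genes. For the cytoskeleton, glycolysis, NF-kB, effector and LPS-induced genes they were 6, 3, 4, 5 and 21. NF-kB genes below all other 9 libraries then numbered 7, where 2344 of all 9923 genes were below.

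Transcript length, GC content, fragment length and shares of counts were compared between replicate 1 and the other libraries. Genes below the range had a median transcript length of 4879 bases and genes above it 2817 bases, against 3472 bases for all protein-coding genes averaging at least 5 CPM. In bins of equal gene number by transcript length, the median log2 difference of replicate 1 from the other 5 LPS and 6-gingerol libraries was 0.09 in the shortest bin, 0.07, 0.04 and -0.01 in the next bins, and -0.08 in the longest. Replicate 1 of 6-gingerol 30 µM showed a trend of like size the other way, at -0.10 in the shortest bin and 0.10 in the longest. In bins by GC content the medians of replicate 1 lay between 0.01 and 0.04, while those of replicate 2 ran from 0.10 in the bin of lowest GC to -0.08 in that of highest GC. The mean fragment length of replicate 1 of 6-gingerol 10 µM was 252 bases, the longest of the 12. The others ran from 223 to 249 bases, with replicate 1 of 6-gingerol 30 µM, whose trend with transcript length ran the other way, at 249 bases. Replicate 1 of 6-gingerol 10 µM had a share of counts on mitochondrial genes of 6.91%, the highest. Its share on long non-coding genes was 0.792%, within the 0.735% to 0.948% of the other libraries. That share was below the 0.866% to 0.941% of the other 5 LPS and 6-gingerol libraries. Whether fragment length, RNA quality or the cultures set the library apart was not tested. Among markers of cell types, 17 of 18 microglia and macrophage markers were tested, with sums of 3370 and 3047 CPM with 6-gingerol, against 3197 and 3176 CPM with LPS. None of 9 neuronal markers was tested, and 5 were at 0 in all 4 libraries compared. Of 9 fibroblast and endothelial markers 3 were tested, with sums over the 3 of 124.5 and 128.8 CPM with 6-gingerol, against 128.4 and 131.4 CPM with LPS, and the 6-gingerol libraries lay below both LPS libraries for 2 of the 3, Col1a1 and Pecam1, whose part in any result was not tested.

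**Figure D5:**
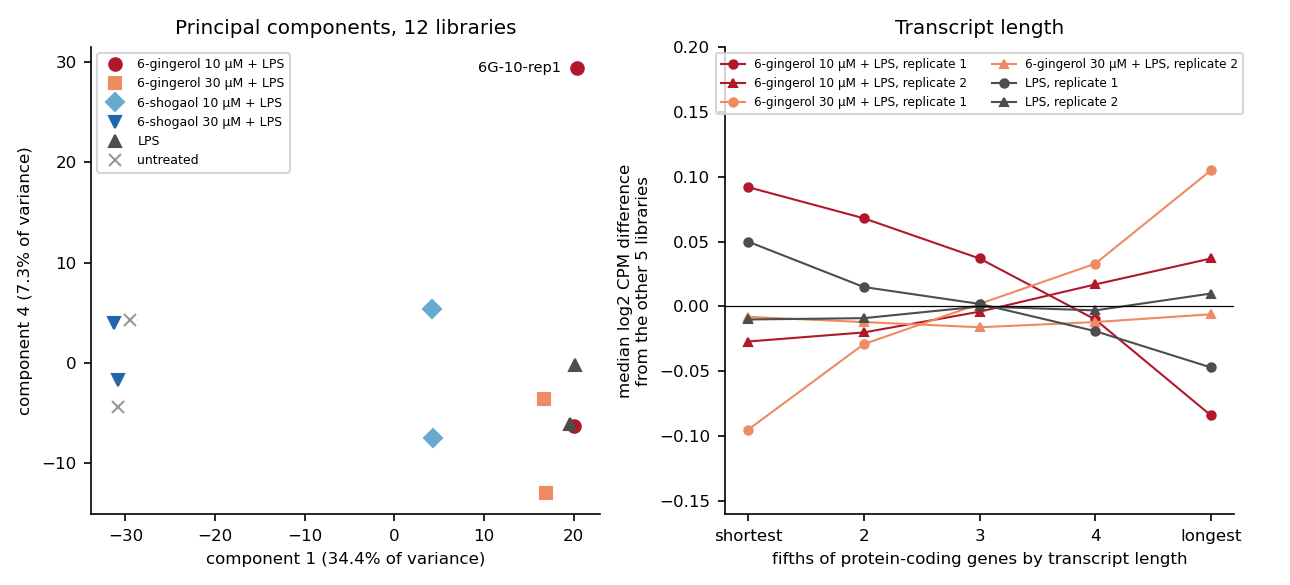
Left, components 1 and 4 of a principal component analysis of log2 CPM, each point 1 of 12 libraries; replicate 1 of 6-gingerol 10 µM with LPS lies at 29.4 on component 4 and no other library above 5.37. Right, median log2 CPM difference of each of 6 libraries from the other 5, by bins of transcript length of protein-coding genes, which runs from 0.09 to -0.08 in replicate 1 of 6-gingerol 10 µM.

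The comparison with LPS was repeated without replicate 1, with the remaining 6-gingerol library assumed to vary like the other groups. No gene was called, 165 had an unadjusted p under 0.05, 10901 of 12972 genes were bounded within 2-fold and 7541 within log2 0.5. Il6 was then at -0.32, Cfb at -0.13, Ccl5 at -0.13 and Tnf at 0.03. Without replicate 2, and so with replicate 1 alone, no gene was called and 782 had an unadjusted p under 0.05. Isg15 was at -0.22 without replicate 1 and at 0.17 without replicate 2, so its direction depended on the library, and Cxcl10 was at 0.00 without replicate 1 and at -0.18 without replicate 2.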

How the data were processed

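RNA of 12 BV2 samples, 2 a group, had been sequenced from stranded poly(A) libraries (TruSeq Stranded mRNA), per the labels' protocols, and counted by the authors. The deposited per-library files hold expected counts, which are RSEM's estimates of reads per gene, TPM values, which are scaled for transcript length, and transcript lengths in bases, per the file headers. A deposited table of the series holds a normalized signal per gene, whose method is not given in the sources used here. The submitters' processing notes list DESeq2 1.44.0 and R 4.4.2, the quantifier RSEM 1.3.3, the aligner STAR 2.7.11b, Trimmomatic 0.39, FastQC 0.12.1 and build GRCm38 without roles or order, and no annotation release is given in the sources used here. Gene identifiers were matched to GENCODE M21 (97.8% of 43432).

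Expected counts were rounded and fitted with edgeR 4.0.16 in R 4.3.3 (quasi-likelihood, robust, filterByExpr, TMM scaling) over all 12 libraries with 6 group means and 6 residual degrees of freedom. Calls are Benjamini-Hochberg adjusted p under 0.05 over 12705 genes, and intervals are 95%. Library totals were 16534960 to 21179867 expected counts. CPM are a gene's counts scaled to its library's TMM-adjusted total. Replicates differed by 6.29 to 36.34 times their counting variance, so none was the same library deposited again. DESeq2 1.42.0, limma 3.58.1, other scalings, other sample sets and leaving out each replicate were alternatives. Members and gene lists were chosen with earlier results of these data known. Named genes were the 10 highest and 10 lowest changes under the rule given in the text, a panel of 34 genes, the 12 genes farthest above and 12 farthest below for replicate 1 of 6-gingerol 10 µM, the 8 lowest adjusted p in each direction against 6-shogaol and 6-gingerol 30 µM, and the lowest, highest or median member of a list. Genes of near-identical sequence share reads and are uncertain. The main fit did not pair samples by replicate number, and values that bear on such pairing are given with the dependence on processing.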

Additional observations from a re-analysis of the deposited data

How the results depend on the processing

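The count of 0 calls against LPS was the same with DESeq2 size factors, library totals, DESeq2, limma-voom, limma-trend on the authors' table, only the 4 libraries compared, the series without untreated libraries, fragment length as a covariate and each of the 4 libraries left out. It was 28 with no count filter, of 20036 genes, where 26 of the 28 had been kept by the filter, 8 had both libraries of a group at 0, and the fit used no gene's own spread (infinite prior degrees of freedom). Genes at an unadjusted p under 0.05 ranged from 96 with DESeq2 to 782 without replicate 2 of the 6-gingerol group. Genes bounded within 2-fold numbered 10723 to 11353, and within log2 0.5 6176 to 9409, in the alternatives run. Calls against untreated cells were 1019 to 1872 with a library left out. Calls against 6-shogaol 10 µM were 419 with no count filter, 179 with DESeq2 and 16 to 49 with a library left out. Calls against 6-gingerol 30 µM were 0 with library totals, 49 with no count filter, 0 with limma-voom and 0 to 1 with a library left out. Genes of replicate 1 of 6-gingerol 10 µM outside the range were 2823 above and 2145 below against the 5 other LPS and 6-gingerol libraries, and 666 above and 2344 below with library totals. The causes of these shifts were not tested. Of class medians under the alternatives, 58 moved by more than the spread and 158 did not, and of named gene values 37 did and 287 did not. Values of genes and classes were followed only for the comparison with LPS, where no gene was called, so no called value was followed. Of the values followed, 15 of 54 named gene values and 19 of 36 class medians took the other sign under at least 1 alternative. That held for 8 and 10 of them without replicate 1 of 6-gingerol 10 µM, and for 2 and 10 under another scaling. Among these, Isg15 was at 0.17 without replicate 2 of that group, Trib3 at -0.09 and Hspa1a at 0.51 without replicate 1, and P2ry12 at 0.70 without LPS replicate 1. The split of calls against untreated cells and that of replicate 1 turned with library totals, to 762 higher and 1042 lower, and to the counts given above.

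The labels do not say whether replicate numbers shared by the groups pair the libraries. Deviations of same-numbered libraries correlated at 0.13 between 6-gingerol 10 µM and LPS, and from -0.63 to 0.45 over all pairs of groups. These values do not settle whether the libraries were paired, since each group gives only 1 difference between its 2 libraries. With the replicate block, 0 genes were called against LPS (259 at an unadjusted p under 0.05), 1710 against untreated cells, 81 against 6-shogaol 10 µM and 1 against 6-gingerol 30 µM, and 11326 and 9249 genes were bounded within 2-fold and log2 0.5. With 2 libraries a group, depth and replicate number limit what can be bounded for genes below 5 CPM.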
